A study of Homo sapiens with 6 samples.

Results

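AP-1 is a transcription factor built from pairs of basic leucine zipper (bZIP) proteins, and the transcripts of 8 genes that encode its subunits were described in Ewing sarcoma cells treated with THZ1. The genes were the Jun family members JUN, JUNB and JUND, the Fos family members FOS, FOSB, FOSL1 and FOSL2, and ATF3. They were taken by gene symbol from the 27420 genes of the deposited table, in which each of the 8 symbols is listed 1 time. Jun proteins pair with each other, with Fos proteins or with ATF proteins, whereas Fos proteins generally bind DNA together with a Jun partner. The pairs recognise a short palindromic DNA site in enhancers and promoters of genes of proliferation, invasion and stress responses. Several members are immediate early genes, whose short-lived transcripts are induced within minutes of a stimulus without new protein synthesis.

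RNA was sequenced from 6 libraries, 1 for each condition. Both lines, A673 and SKNMC, come from Ewing sarcoma, a bone and soft tissue tumour driven by the EWS-FLI1 fusion protein, and were kept in DMEM with fetal bovine serum. Each line received the vehicle DMSO, THZ1 at 50 nM or THZ1 at 200 nM for 6 h. THZ1 binds covalently to the kinase CDK7, which phosphorylates RNA polymerase II, and blocks it. No other genotype or agent is named by the labels, and the 2 lines stand for themselves, with no replicate culture of either. Levels are FPKM (fragments per length of transcript and per depth of the library), as deposited by the authors, so that levels can be compared between genes per length. Since each condition had 1 library, differences within a line had no replicate spread beside them and no test was made within a line. Changes are differences on the log2(FPKM + 1) scale, on which low genes appear to change less than they do, and 2-fold on that scale was used as the threshold. Genes above 1 FPKM with DMSO were called active, 11077 in A673 and 11896 in SKNMC. FPKM is a share of a library, so that a transcript kept while many others are lost gains FPKM, and the median change of all active genes was, for 50 and then 200 nM, -0.27 and -0.40 for A673 and -0.32 and -0.55 for SKNMC. In bulk RNA, fewer cells with a transcript and less transcript per cell cannot be told apart.

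The 6 Ewing sarcoma markers (CD99, NKX2-2, FLI1, NR0B1, STEAP1 and CCK) were above 1 FPKM in all 6 libraries, with a summed level between 667 and 886 FPKM. CD99 was the highest of them in each library, between 313 and 763 FPKM, so the sum hides changes of the others. From DMSO to 200 nM, FLI1 went from 31.5 to 4.26 FPKM in A673 and from 27.3 to 4.56 FPKM in SKNMC. NKX2-2, NR0B1 and STEAP1 were also lower at 200 nM in both lines. CD99 was higher in both lines and CCK in SKNMC alone. Of 8 markers of leukocytes, endothelium, epithelium and muscle, 7 were listed, and their summed level was between 0.0430 and 0.124 FPKM in the A673 libraries and between 8.36 and 14.0 FPKM in the SKNMC libraries. In SKNMC this sum was almost wholly PTPRC, the leukocyte antigen CD45, at 10.2, 7.90 and 13.1 FPKM with DMSO, 50 nM and 200 nM, while the T cell gene CD3E was listed at 0 in all 6 libraries. The part of PTPRC in the AP-1 values of SKNMC was not tested. From steps between the lowest FPKM values, the depth of the THZ1 libraries was put at 88.8% to 96.8% of their DMSO library. Only 1.41% to 2.13% of the low genes sat at the commonest step, so this is a rough estimate. Steps were searched only within a fixed range around equal depth, so a depth outside that range could not have been found. Single genes have no counting error here.

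With DMSO, JUND was the most abundant of the 8 transcripts in both lines, and FOSB the least. In A673 the order was JUND, JUN, FOSL1, FOSL2, JUNB, FOS, ATF3 and FOSB, from 86.8 to 0.313 FPKM. In SKNMC it was JUND, JUN, JUNB, FOS, FOSL2, ATF3, FOSL1 and FOSB, from 49.4 to 0.239 FPKM. JUNB, at 27.1 FPKM, and JUN, at 27.2 FPKM, had almost the same level in SKNMC. With THZ1 at either dose JUNB was the most abundant of the 8 in both lines, and at 200 nM it was followed by FOS. Without replicates, neighbours in these orders could not be separated by their spread.

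**Figure D1:**
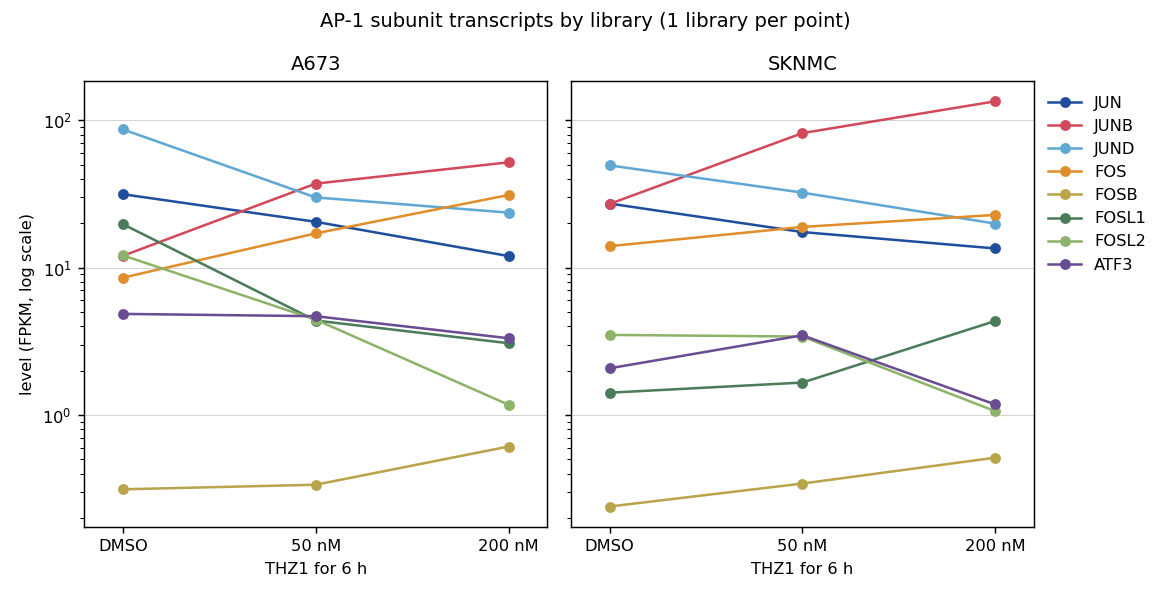
Level of each of the 8 transcripts in FPKM (log axis) with DMSO, 50 nM and 200 nM THZ1 in A673 (left) and SKNMC (right), 1 library per point with lines joining the libraries of a gene. JUNB goes from 12.0 to 51.9 FPKM in A673 and from 27.1 to 135 FPKM in SKNMC, whereas JUND goes from 86.8 to 23.6 FPKM and from 49.4 to 19.9 FPKM.

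At 50 nM THZ1 in A673, 3 of the 7 active members (JUND, FOSL1 and FOSL2) were at least 2-fold lower than with DMSO, against 15.9% of all active genes, and 1 (JUNB) was at least 2-fold higher, against 0.343%. At 200 nM in A673, 4 members were at least 2-fold lower (JUN, JUND, FOSL1 and FOSL2), against 25.3% of all active genes, and 2 were at least 2-fold higher (JUNB and FOS), against 0.126%. In SKNMC at 50 nM, 0 of 7 active members were at least 2-fold lower, against 15.8%, and JUNB alone was at least 2-fold higher, against 0.471%. At 200 nM in SKNMC, JUND and FOSL2 were at least 2-fold lower, against 27.3%, and JUNB and FOSL1 at least 2-fold higher, against 0.462%. FOSB did not pass the level filter in either line. The median change of the 7 active members was -0.60 and -1.32 for the lower and higher dose in A673, and 0.14 and -0.50 in SKNMC with single members on both sides of 0 in each comparison. Both doses of a line were compared with the same DMSO library.

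When 1.5-fold was taken as the threshold, 4 members were lower and 2 higher in A673 at each dose, against 31.8% and 1.78% of active genes at 50 nM and 41.1% and 1.7% at 200 nM. In SKNMC 2 were lower (JUN and JUND, at -0.61 and -0.60) and 1 higher at 50 nM, against 33.5% and 2.43%, and 3 lower and 3 higher at 200 nM, against 48% and 2.81%. Between the doses 2 were lower and 1 higher in A673, against 18% and 2.33%, and 3 lower and 2 higher in SKNMC, against 22.1% and 3.77%. With DMSO 2 were lower and 4 higher in A673 than in SKNMC, against 26.6% and 17.6%. The members past the lower threshold but short of 2-fold included FOS at 0.92 in A673 and 0.67 in SKNMC, and JUN at -0.96 in SKNMC.

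The mean change over both lines was also fitted with limma on the 6 libraries, with the cell line as a block and 12399 genes above 1 FPKM in either DMSO library, a fit chosen after the data were seen. It treats the 2 lines as replicates, has 2 residual degrees of freedom per gene and shares the DMSO libraries between doses. The variance of each gene was moderated towards that of all fitted genes with a trend on level, so the p-values draw on other genes as well. JUNB rose by 1.56 with an SE of 0.138 at 50 nM (limma, Benjamini-Hochberg adjusted p = 6.387e-05) and by 2.15 at 200 nM (limma adjusted p = 7.807e-06), higher in 2 of 2 lines. FOS rose by 0.67 with an SE of 0.226 at 50 nM (limma adjusted p = 0.04269) and by 1.21 at 200 nM (limma adjusted p = 0.001357), and with scaling by the ribosomal protein genes the first became 0.40 (limma adjusted p = 0.1946). These were the 2 of 7 members that rose, against 4.11% of genes at 50 nM and 5.13% at 200 nM. JUN and JUND fell at 50 nM, against 32.1% of genes, with limma adjusted p of 0.01464 and 0.002447, and JUN became 0.139 with scaling by the 75th percentile. At 200 nM JUN, JUND and FOSL2 fell, against 45.7% of genes, with limma adjusted p of 0.0002281, 0.0001228 and 0.000597. FOSL1 did not pass at either dose, with limma adjusted p of 0.2501 and 0.4151 and an SE of 0.583, and neither did ATF3, although with scaling by the ribosomal protein genes its limma adjusted p at 200 nM was 0.004147.

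**Figure D2:**
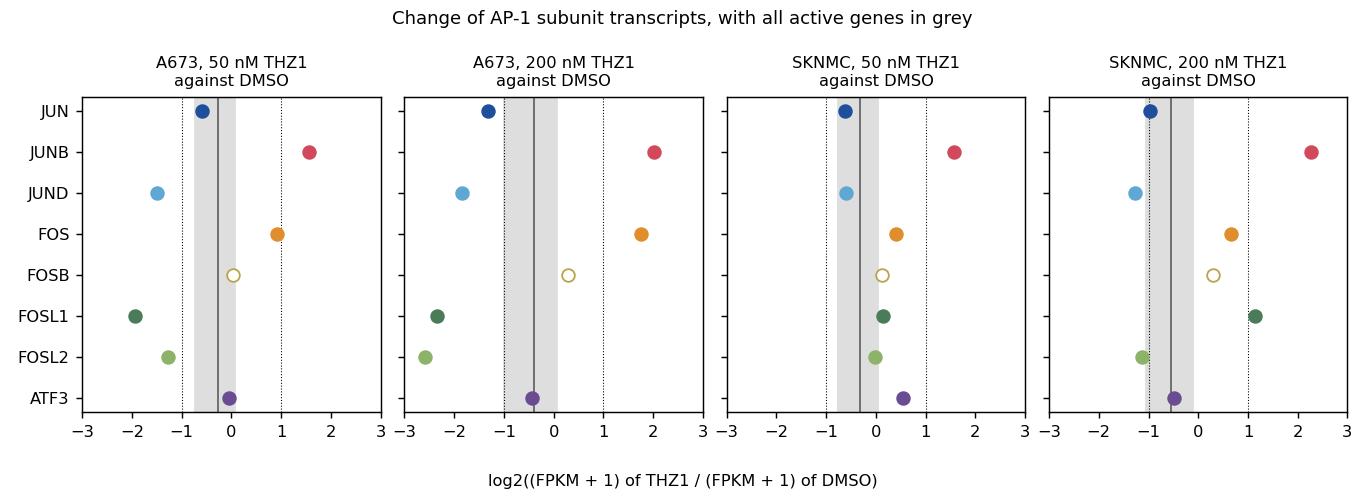
Change of each transcript against DMSO, on the log2(FPKM + 1) scale, in 4 comparisons of 1 library with 1 library; the grey band is the interquartile range of all active genes, the grey line their median, dotted lines mark 2-fold, and open circles mark a gene at or below 1 FPKM with DMSO. JUNB lies between 1.55 and 2.27 in all 4 panels, and FOSL1 lies at -1.95 and -2.35 in A673 and at 0.14 and 1.15 in SKNMC.

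Among the Jun family, JUNB encodes a Jun protein that activates many AP-1 sites more weakly than JUN and can oppose it. A673 held JUNB at 12.0 FPKM with DMSO, 37.2 at 50 nM and 51.9 at 200 nM. SKNMC held it at 27.1, 81.9 and 135 FPKM. Its level was higher in each THZ1 library than in the DMSO library of its line, and higher at 200 nM than at 50 nM in both lines. The changes were 1.55 and 2.02 on the log2 scale in A673 and 1.56 and 2.27 in SKNMC, that is 3.09 and 4.31 times the DMSO level in A673 and 3.03 and 4.97 times in SKNMC. The JUNB changes stayed past 2-fold under each of the 3 scalings and 3 pseudocount settings tried, the lowest being 1.24 in SKNMC at 50 nM with scaling by the ribosomal protein genes. Ranked from the largest increase, the A673 libraries had JUNB as gene 8 of 11077 at 50 nM and gene 1 at 200 nM, and it was gene 13 of 11896 and gene 3 in SKNMC. The JUNB gene lies on chromosome 19 (12902309 to 12904124 in hg19, plus strand), and its whole span of 1816 bases lies inside the span of HOOK2 on the minus strand. Whether reads were counted by strand is not given in the sources used here. HOOK2 was at 2.99, 2.22 and 3.12 FPKM in A673 and at 5.70, 2.84 and 6.19 FPKM in SKNMC, lower at 50 nM than with DMSO in both lines.

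FOS, the founding Fos protein and the classical serum-induced partner of JUN, was also higher with THZ1. In A673 the FOS level was 8.54 FPKM with DMSO, 17.1 at 50 nM and 31.1 at 200 nM. The SKNMC libraries had 14.0, 18.9 and 22.8 FPKM. The order of the doses was the same in both lines, and the changes were 0.92 and 1.75 on the log2 scale in A673 but 0.41 and 0.67 in SKNMC, where neither reached 2-fold. With scaling by the 75th percentile the change in A673 at 50 nM was 1.16 and that in SKNMC at 200 nM was 1.22. At 200 nM FOS was gene 3 of 11077 from the largest increase in A673 and gene 231 of 11896 in SKNMC. In SKNMC these changes were 0.097 and 0.13 when libraries were scaled by their ribosomal protein genes. FOS lies on chromosome 14 (75745476 to 75748933, plus strand) and overlaps no other listed gene.

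JUNB, FOS and, at levels below 1 FPKM, FOSB were higher in every THZ1 library than with DMSO. Of these, the 300 bases around the start of JUNB and of FOS, from 250 before to 50 after it, are shown. They are RefSeq promoters, found for 7 of the 8 genes (not FOSL1) in a table of GRCh38.p14 and placed in GRCh37, the build of the deposited table, by exact match, JUNB at chr19:12902050-12902349 and FOS at chr14:75745281-75745580, both on the plus strand. Base positions are counted from the RefSeq start, which can differ from the gene start printed here. For FOSL2 the window begins at 28615475, after its listed gene start at 28615314. Capitals mark matches on either strand. The motifs searched were the AP-1 site TGACTCA, the cAMP response element written as TGACGTCA and its shorter core TGACG, which also lies within each full element. They also included the CArG box by name, the CCAAT box, the TATA box written as TATAAA, the GC box written as GGGCGG, and the ETS repeat written as GGAAGGAA.
JUNB: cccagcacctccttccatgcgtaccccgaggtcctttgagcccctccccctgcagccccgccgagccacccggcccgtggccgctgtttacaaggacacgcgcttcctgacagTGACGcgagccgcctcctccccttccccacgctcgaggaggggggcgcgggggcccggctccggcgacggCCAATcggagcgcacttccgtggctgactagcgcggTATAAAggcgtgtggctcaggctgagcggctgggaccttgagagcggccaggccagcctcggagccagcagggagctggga
FOS: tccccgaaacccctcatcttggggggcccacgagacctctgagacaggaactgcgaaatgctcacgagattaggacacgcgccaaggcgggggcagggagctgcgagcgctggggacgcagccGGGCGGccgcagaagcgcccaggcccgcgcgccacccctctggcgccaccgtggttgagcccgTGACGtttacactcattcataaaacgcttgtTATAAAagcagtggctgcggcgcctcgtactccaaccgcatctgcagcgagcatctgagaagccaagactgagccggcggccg

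JUNB and FOS both hold TATAAA shortly before the start, from base -31 to -26 in JUNB and from -33 to -28 in FOS, and FOSB holds it from -30 to -25. TATAAA is found in 11.5% of the 35116 promoters of the table. JUNB and FOS also hold 1 TGACG each, found in 24.6% of promoters. It was not particular to them, since FOSB and JUN hold 1 each, FOSL2 holds 2 and JUND holds 3. Neither window of ATF3 holds it. No CArG box, the binding site of SRF, was found in the windows of the 7 genes, nor GGAAGGAA. These are present in 1.29% and 3.67% of all promoters. Sequence outside the windows was not searched, so an SRF site of FOS farther from its start would have been missed. The search therefore cannot tell whether FOS or the other genes have such a site. A match of letters is a description of the sequence and not a bound site.

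JUN, the strongest activator among the Jun proteins and the substrate of JNK kinases, was lower with THZ1 in both lines. JUN stood at 31.5, 20.5 and 12.0 FPKM in the 3 A673 libraries, in the order DMSO, 50 nM and 200 nM that is used throughout. It stood at 27.2, 17.4 and 13.5 FPKM in SKNMC. The change at 50 nM was -0.60 in A673 and -0.61 in SKNMC, where 31.1% and 31.9% of active genes had a lower value. At the higher dose it was -1.32 in A673 and -0.96 in SKNMC, and the latter became -1.01 without a pseudocount, -1.48 with scaling by the ribosomal protein genes and -0.43 with scaling by the 75th percentile. JUN lies on chromosome 1 (59246464 to 59249785, minus strand). JUND, the broadly expressed Jun protein that restrains growth in several cell types, was at 86.8, 30.0 and 23.6 FPKM in A673. The SKNMC levels were 49.4, 32.3 and 19.9 FPKM. It was lower in every THZ1 library than with DMSO, by -1.50 and -1.83 on the log2 scale in A673 and by -0.60 and -1.27 in SKNMC. JUND lies on chromosome 19 (18390562 to 18392432, minus strand). With scaling by the 75th percentile the JUN change at 200 nM in A673 was -0.98 and the JUND change at 200 nM in SKNMC was -0.73. JUN, JUNB and JUND each have 1 exon in their MANE transcript (GENCODE release 44 on GRCh37), while the other 5 genes have 4 exons each.

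The summed Jun family level went from 130 FPKM with DMSO to 87.6 and 87.5 FPKM in A673, and from 104 to 132 and 168 FPKM in SKNMC. In A673 JUNB made up 9.23%, 42.4% and 59.3% of this sum with DMSO, 50 nM and 200 nM. Its SKNMC share was 26.1%, 62.2% and 80.1%. The share of JUND went from 66.6% to 27.0% in A673 and from 47.7% to 11.8% in SKNMC between DMSO and 200 nM. The ratio of JUNB to JUND within a library, on which a scaling of that library has no effect, was 0.139, 1.24 and 2.19 in A673 and 0.547, 2.54 and 6.77 in SKNMC.

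**Figure D3:**
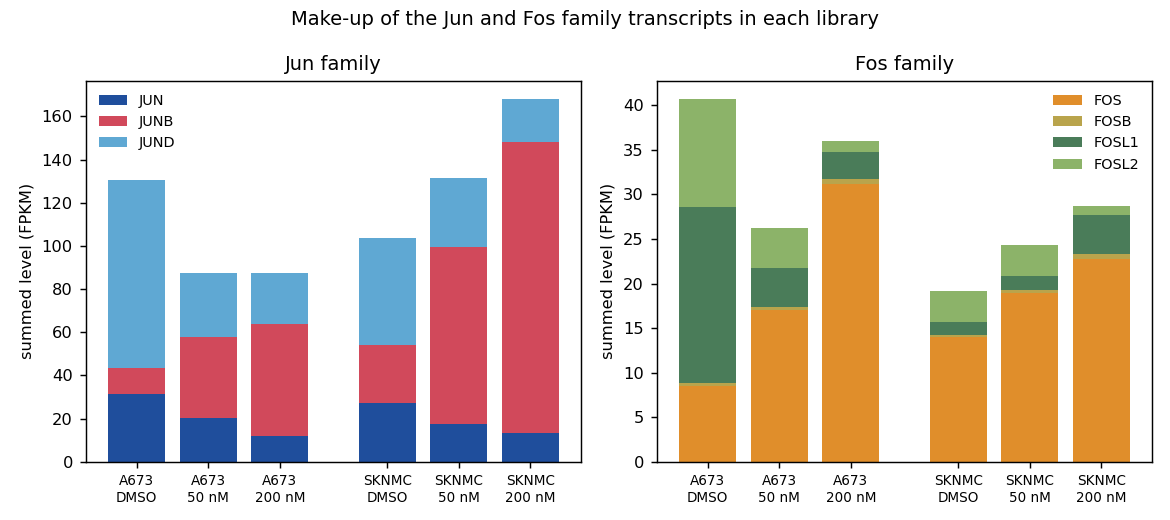
Summed FPKM of the Jun family (left) and the Fos family (right) in each of the 6 libraries, with each bar divided by gene and 1 library per bar. JUNB takes 9.23% of the Jun family bar with DMSO and 59.3% at 200 nM in A673, and FOS takes 21.0% and 86.5% of the Fos family bar in the same libraries.

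FOSL1 (Fra-1) and FOSL2 (Fra-2) encode Fos proteins without the transactivation domain of FOS, and both are known from invasive tumour cells. FOSL1 stood at 19.7 FPKM with DMSO, 4.37 with 50 nM and 3.07 with 200 nM THZ1 in A673. Levels in SKNMC were 1.42, 1.66 and 4.34 FPKM. The 2 lines thus had opposite directions: the change was -1.95 and -2.35 in A673 and 0.14 and 1.15 in SKNMC, and the value of 0.14 became -0.059 and that of 1.15 became 0.70 with scaling by the ribosomal protein genes. With DMSO the level in A673 was 13.9 times that in SKNMC, a difference of 3.10 on the log2 scale, and at 200 nM the level was lower in A673 than in SKNMC. FOSL1 lies on chromosome 11 (65659519 to 65668044, minus strand) and overlaps no other listed gene.

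FOSL2 was at 12.1, 4.44 and 1.17 FPKM in A673. Its SKNMC levels were 3.49, 3.41 and 1.06 FPKM. In A673 it was lower at both doses, by -1.27 and -2.59, and the second value was the lowest of the 8 members in any comparison with DMSO. In SKNMC it was -0.029 at 50 nM, which became 0.20 with scaling by the 75th percentile, and -1.12 at 200 nM, which became -0.80 with the same scaling. Between the doses, a comparison that does not use the DMSO library, FOSL2 was lower at 200 nM than at 50 nM by -1.32 in A673 and by -1.10 in SKNMC. In that comparison it was the 1 member at least 2-fold lower in A673, against 7.44% of active genes, and 1 of 2 in SKNMC, against 8.39%, the other being ATF3. No member in A673 was at least 2-fold higher at 200 nM than at 50 nM, against 0.117% of active genes, and FOSL1 was in SKNMC, against 0.37%. In SKNMC these calls depended on the scaling, since with the 75th percentile FOSL2 became -0.95 and ATF3 -0.88, and with the ribosomal protein genes FOSL1 became 0.82. FOSL2 lies on chromosome 2 (28615314 to 28640179, plus strand).

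FOSB was at 0.313, 0.336 and 0.610 FPKM in A673 and at 0.239, 0.342 and 0.513 FPKM in SKNMC. These levels were the lowest of the 8 genes in every library, and the values at 200 nM were 1.95 and 2.15 times those with DMSO, but at such levels the log2(FPKM + 1) scale gives only 0.29 in each line. The change of 0.025 in A673 at 50 nM became -0.028 with scaling by the ribosomal protein genes. FOSB lies on chromosome 19 (45971252 to 45978437, plus strand), and its whole span lies inside that of ERCC1 on the other strand, which was at 45.7, 39.0 and 46.7 FPKM in A673 and at 34.9, 23.4 and 28.2 FPKM in SKNMC, so the FOSB level is uncertain.

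The summed Fos family level was 40.7, 26.2 and 36.0 FPKM in A673 and 19.1, 24.3 and 28.7 FPKM in SKNMC. In A673 with DMSO, FOSL1 was the largest part at 48.5%, followed by FOSL2 at 29.8% and FOS at 21.0%, and at 200 nM FOS was 86.5% of the sum. In SKNMC, FOS was the largest part in each library, at 73.1%, 77.8% and 79.4%. The Jun family sum was 3.20, 3.34 and 2.43 times the Fos family sum in A673 and 5.42, 5.42 and 5.85 times in SKNMC.

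ATF3 (not shown), JUN, JUND and FOSL2 were lower at 200 nM in both lines. The promoters of JUN, JUND and FOSL2 are shown beside those of JUNB and FOS. They lie at chr1:59249670-59249969 and chr19:18392383-18392682 on the minus strand and at chr2:28615475-28615774 on the plus strand in GRCh37, written along the strand of the gene with the same motifs in capitals.
JUN: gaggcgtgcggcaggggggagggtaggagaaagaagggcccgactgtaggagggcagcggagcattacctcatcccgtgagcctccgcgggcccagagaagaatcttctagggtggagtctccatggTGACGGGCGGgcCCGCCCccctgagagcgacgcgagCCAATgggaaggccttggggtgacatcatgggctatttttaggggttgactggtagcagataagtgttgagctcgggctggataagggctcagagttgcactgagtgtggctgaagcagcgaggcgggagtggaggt
JUND: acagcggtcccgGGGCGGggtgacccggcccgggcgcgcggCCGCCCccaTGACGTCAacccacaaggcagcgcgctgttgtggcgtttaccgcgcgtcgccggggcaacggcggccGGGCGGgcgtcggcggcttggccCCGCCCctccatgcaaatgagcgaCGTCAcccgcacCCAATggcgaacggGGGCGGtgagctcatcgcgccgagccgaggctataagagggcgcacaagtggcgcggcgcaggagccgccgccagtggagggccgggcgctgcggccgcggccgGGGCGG
FOSL2: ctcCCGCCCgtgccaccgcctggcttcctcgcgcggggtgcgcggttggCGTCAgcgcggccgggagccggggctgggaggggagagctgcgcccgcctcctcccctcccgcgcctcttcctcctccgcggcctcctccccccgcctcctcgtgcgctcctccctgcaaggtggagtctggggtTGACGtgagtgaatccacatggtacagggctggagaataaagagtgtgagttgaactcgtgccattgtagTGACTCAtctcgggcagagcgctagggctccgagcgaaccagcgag

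JUND holds the full TGACGTCA, from base -200 to -193, and FOSL2 holds TGACTCA from base 5 to 11 after its RefSeq start. The first is found in 1.85% and the second in 4.95% of all promoters. Only exact letters were searched, so a variant of these sites, such as tgacatca in the JUN window, was not counted. JUND has 6 GC boxes, JUN has 2 of them and FOSL2 has 1. FOSB also has 2, FOS has 1 and JUNB has 0, and 45% of promoters hold at least 1. None of the windows of JUN, JUND and FOSL2 holds TATAAA. ATF3 has 2 windows, and its window 2 holds TATAAA from base -230 to -225. The GC content was 77% for JUND, 68.7% for FOSL2 and 62% for JUN, and 71% for JUNB and 64.7% for FOS.

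ATF3, a stress-induced bZIP protein that represses transcription as a homodimer and pairs with Jun proteins, was at 4.85, 4.68 and 3.32 FPKM in A673. SKNMC had levels of 2.07, 3.47 and 1.18 FPKM. In neither line did it reach 2-fold against DMSO. In A673 the changes were -0.043, which became 0.17 with scaling by the 75th percentile, and -0.44. In SKNMC it was higher than with DMSO at 50 nM, by 0.54, and lower at 200 nM, by -0.50, and 200 nM was lower than 50 nM by -1.04, or by -0.88 with scaling by the 75th percentile. At 200 nM, 47.9% of active genes in A673 and 52.7% in SKNMC had a lower change than ATF3, near the middle of all active genes. ATF3 lies on chromosome 1 (212738675 to 212794119, plus strand).

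With DMSO, 2 of the 7 members above 1 FPKM were at least 2-fold higher in A673 than in SKNMC, FOSL1 and FOSL2, against 8.42% of active genes, and JUNB was at least 2-fold lower, against 15%. The level of FOSL2 was 3.47 times and that of ATF3 2.34 times the SKNMC level, JUNB was at 44.4% and FOS at 61.1% of it, and JUN was at 116%. With scaling by the ribosomal protein genes, JUNB did not reach 2-fold and JUND and ATF3 did. The ATF3 difference was 0.93 on the log2(FPKM + 1) scale, short of 2-fold. It was 1.19 with a pseudocount of 0.1 FPKM and 1.23 without a pseudocount.

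The 8 profiles were also compared over the 6 libraries as the root-mean-square difference of log2(FPKM + 1) after the mean of each gene was taken off, where a low value means alike. The most alike pair was JUN and JUND at 0.30, followed by JUND and FOSL2 at 0.38 and by FOS and FOSB at 0.45, the last with the low FOSB level in its favour. JUNB was nearest to FOS, at 0.74, and farthest from FOSL2, at 1.90. Of 12774 other genes above 1 FPKM in at least 1 library, the 3 nearest to JUN were RAB12 at 0.056, BEND7 at 0.064 and RALGDS at 0.064. RAB12, a small GTPase of endosomal transport, was at 24.9, 15.9 and 8.86 FPKM in A673 and 20.9, 14.1 and 11.4 FPKM in SKNMC. The 3 nearest to ATF3 were GOT1 at 0.10, CCNH at 0.12 and RANBP10 at 0.12, of which CCNH, the cyclin partner of CDK7, was at 37.5, 38.9 and 30.9 FPKM in A673 and 25.1, 30.2 and 15.7 FPKM in SKNMC. FOS had no neighbour as close: LY6G5B stood at 0.24, TMEM88 at 0.25 and HIST2H3D at 0.25. TMEM88 was above 1 FPKM only at 200 nM, at 1.20 FPKM in A673 and 1.17 FPKM in SKNMC. HIST2H3D was above it only at 200 nM in A673, at 1.12 FPKM. These 2 genes entered the search through those libraries alone, and at such low levels the scale makes changes appear smaller. LY6G5B overlaps CSNK2B, and HIST2H3D belongs to a family of near-identical histone genes, so their levels are uncertain.

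**Figure D4:**
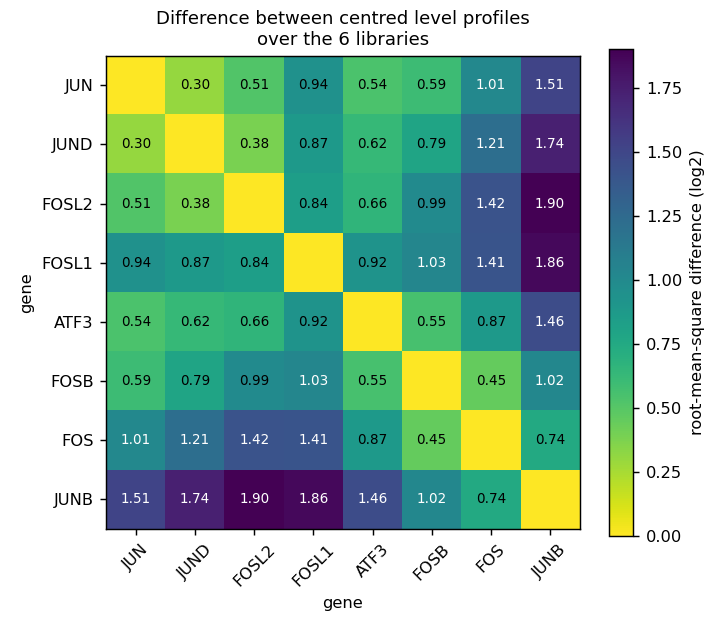
Root-mean-square difference between the centred log2(FPKM + 1) profiles of each pair of the 8 genes over the 6 libraries, with both axes listing the genes and the colour and number giving the difference. JUN and JUND differ by 0.30, and JUNB differs from FOSL2 by 1.90.

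The genes around AP-1 were described by lists. Of all active genes, 15.9% in A673 and 15.8% in SKNMC were at least 2-fold lower at 50 nM and 25.3% and 27.3% at 200 nM, and 0.126% to 0.471% were at least 2-fold higher. Of 13 other bZIP genes whose proteins can pair with Jun or Fos or share their sites, 9 were active in each line. At 50 nM, 0 were at least 2-fold lower in A673 and 1 in SKNMC (BATF3), and at 200 nM 1 and 4, the last of which became 0 with scaling by the 75th percentile and 6 with scaling by the ribosomal protein genes. At each dose 0 were at least 2-fold higher in either line, and the median change was -0.14 and -0.58 in A673 and -0.24 and -0.84 in SKNMC. The small Maf genes MAFG and MAFK, which lack an activation domain, stood at 34.5 and 30.7 FPKM at 50 nM in A673, against 22.1 and 19.4 with DMSO and 22.8 and 18.4 at 200 nM.

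Of 9 regulators of Fos and Jun transcription, all active in both lines, 1 was at least 2-fold lower at 50 nM in each line, CREB1, and 3 at 200 nM in each line, CREB1, MKL1 and MEF2D. The 3 in SKNMC became 1 (MKL1) with scaling by the 75th percentile and 7 with scaling by the ribosomal protein genes. CREB1, which binds the cAMP response element, went from 15.7 to 3.99 and 3.45 FPKM in A673 and from 20.4 to 4.62 and 6.55 FPKM in SKNMC, a change of -1.50 at 200 nM in SKNMC that became -0.996 with scaling by the 75th percentile. SRF, which binds the serum response element of FOS, was at 30.5, 23.4 and 19.9 FPKM in A673 and 27.1, 26.7 and 14.6 FPKM in SKNMC. The median change of the 9 was -0.19 and -0.73 in A673 and -0.030 and -0.85 in SKNMC.

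Of 14 kinases upstream of AP-1, all active in both lines, 2 were at least 2-fold lower at 50 nM in each line, MAPK7 (ERK5) and MAP2K7, an activator of JNK. At 200 nM 4 were in A673 and 5 in SKNMC, and 0 were at least 2-fold higher at either dose. The 5 in SKNMC became 1 with scaling by the 75th percentile and 7 with scaling by the ribosomal protein genes. With the 75th percentile, 1 kinase (MAPK3) was at least 2-fold higher in A673 at 200 nM. MAP2K7 went from 15.1 to 4.55 and 3.99 FPKM in A673 and from 12.4 to 4.40 and 3.94 FPKM in SKNMC. MAPK8, which encodes JNK1, was at 22.1, 30.2 and 22.3 FPKM in A673 and 17.2, 23.9 and 16.0 FPKM in SKNMC. The MAPK7 change in SKNMC at 50 nM was at the threshold, and became -0.76 with scaling by the 75th percentile. The median change of the 14 was -0.096 and -0.079 in A673 and -0.18 and -0.63 in SKNMC.

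Of 4 genes of AP-1 protein turnover, FBXW7, the ubiquitin ligase receptor for phosphorylated JUN, was at least 2-fold higher at 50 nM in both lines, where 1 other (DET1) was at least 2-fold lower. At 200 nM 2 of the 4 (DET1 and RFWD2) were at least 2-fold lower and 0 higher in each line. Both A673 calls ended with scaling by the 75th percentile, at -0.94 and -0.91. In SKNMC the same scaling put FBXW7 at least 2-fold higher at 200 nM. FBXW7 was at 4.84, 11.2 and 5.42 FPKM in A673 and at 4.98, 14.1 and 9.60 FPKM in SKNMC, and its change of 1.06 in A673 at 50 nM did not reach 2-fold with scaling by the ribosomal protein genes. DET1, which brings JUN to the ligase RFWD2 (COP1), went from 2.72 to 0.183 and 0.724 FPKM in A673 and from 3.99 to 0.468 and 0.786 FPKM in SKNMC. RFWD2 itself was at 16.0, 10.2 and 6.23 FPKM in A673 and at 21.3, 11.8 and 5.37 FPKM in SKNMC.

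Of 25 genes known as AP-1 targets, 18 were active in A673 and 13 in SKNMC. At 50 nM 2 were at least 2-fold lower in A673 and 4 in SKNMC, at 200 nM 3 and 2, and 0 were at least 2-fold higher in any of these comparisons. In SKNMC the counts of lower genes became 1 at each dose with scaling by the 75th percentile, and 7 and 8 with scaling by the ribosomal protein genes. Their median change was -0.23 and -0.29 in A673, against -0.27 and -0.40 for all active genes, and -0.84 and -0.51 in SKNMC, against -0.32 and -0.55. DUSP1, a phosphatase that switches off MAP kinases, went from 11.7 to 2.71 and 1.68 FPKM in A673 and from 12.5 to 5.71 and 3.93 FPKM in SKNMC. The collagenase gene MMP1 was at 839, 849 and 1015 FPKM in A673 and at 22.7, 11.7 and 18.3 FPKM in SKNMC. CCND1, which encodes cyclin D1, was at 711, 461 and 505 FPKM in A673 and at 370, 197 and 202 FPKM in SKNMC.

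Among 21 other immediate early genes, 18 were active in each line. At 50 nM 5 were at least 2-fold lower in each line, and 0 in A673 and 1 in SKNMC (IER2) were at least 2-fold higher. At 200 nM 8 were at least 2-fold lower and 3 at least 2-fold higher in each line, and the median change was -0.62 and -0.87 in A673 and -0.15 and -0.76 in SKNMC. The 8 became 4 in each line with scaling by the 75th percentile, and with scaling by the ribosomal protein genes 11 in A673 and 10 in SKNMC. IER2, a nuclear immediate early protein, was at 65.6, 106 and 134 FPKM in A673 and at 20.5, 56.7 and 91.5 FPKM in SKNMC. IER3, a stress-responsive survival gene, was at 37.3, 53.8 and 92.3 FPKM in A673 and at 18.4, 28.9 and 85.3 FPKM in SKNMC. Their changes at 200 nM in A673 were 0.66 for IER2 and 0.93 for IER3 with scaling by the ribosomal protein genes, both short of 2-fold. The others past 2-fold were EGR1 in A673 and ZFP36 in SKNMC, the latter at 1.07 and at 0.57 with the same scaling. EGR1, a zinc finger factor induced through SRF, was at 12.7, 13.8 and 53.4 FPKM in A673 but at 2.38, 0.484 and 1.13 FPKM in SKNMC. By contrast KLF2, a factor of the Krüppel-like family, went from 6.88 to 1.32 and 0.637 FPKM in A673 and from 4.89 to 1.48 and 0.542 FPKM in SKNMC. BTG2, an antiproliferative gene, went from 3.92 to 0.738 and 0.909 FPKM in A673 and from 13.7 to 3.07 and 2.74 FPKM in SKNMC. As among the 8 AP-1 genes, values on both sides of DMSO were found within this list.

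**Figure D5:**
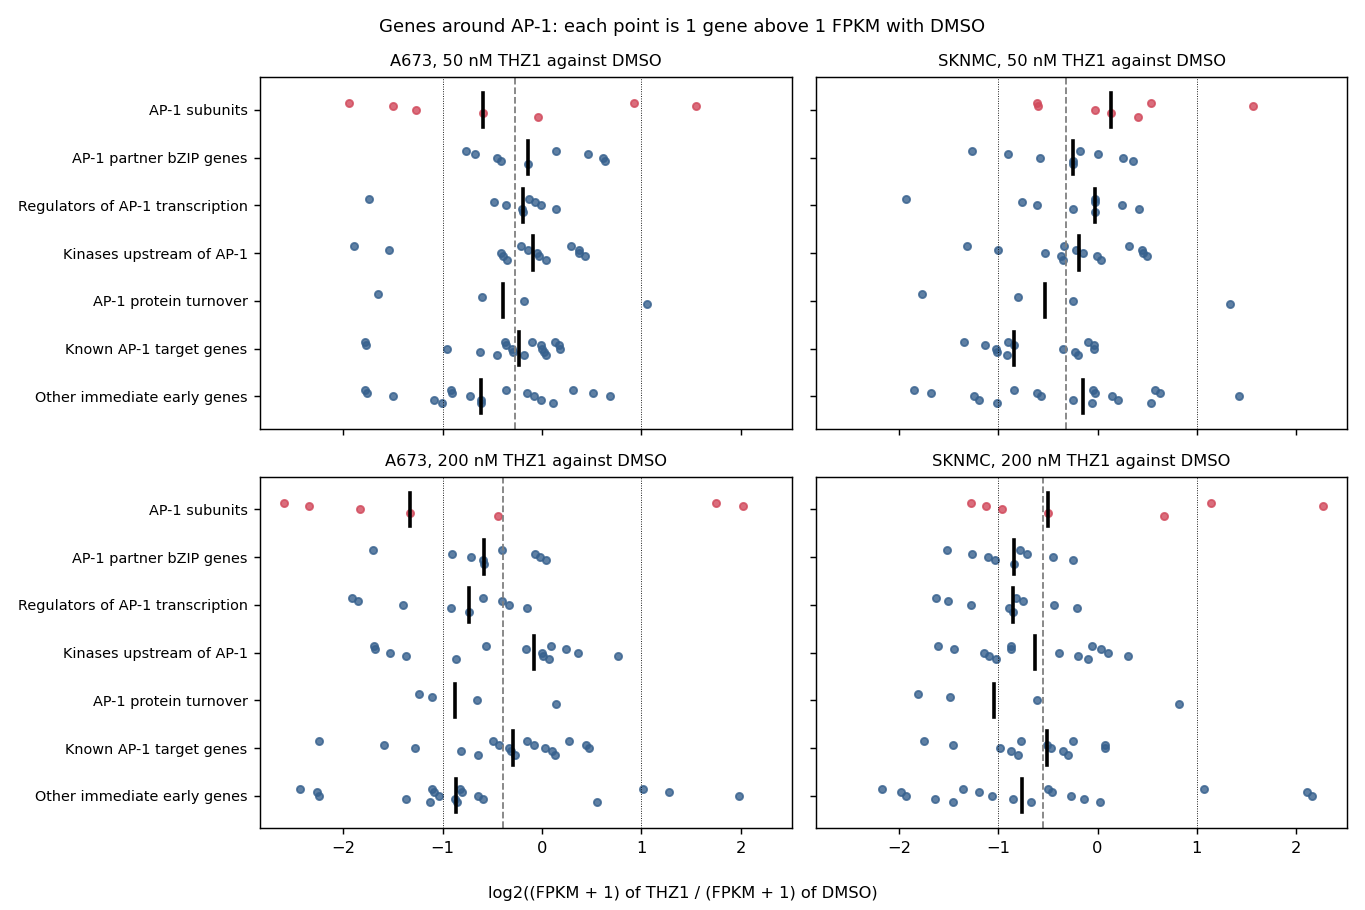
Change against DMSO on the log2(FPKM + 1) scale for the AP-1 subunits (red) and 6 lists of genes around AP-1 (blue), 1 point per active gene, with black bars at the list medians, a dashed line at the median of all active genes and dotted lines at 2-fold. At 200 nM the AP-1 subunits reach from -2.59 to 2.02 in A673 and from -1.27 to 2.27 in SKNMC.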

How the data were processed

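RNA-seq values of 6 libraries were used, 1 for each line (A673, SKNMC) and treatment (DMSO, THZ1 at 50 or 200 nM, each for 6 h), assigned from the sample titles. The authors aligned 100-bp paired-end reads of TruSeq libraries to hg19 with STAR and Ensembl 75 and deposited FPKM values for 20311 protein-coding and 7109 lincRNA genes. The methods of the study name StringTie for FPKM, while the submitters' processing notes name Cufflinks; versions are not given in the sources used here. The table's title speaks of average expression, but the labels give 1 library per condition, and each column was treated as 1 library. The 4 deposited columns of log2 fold changes against DMSO were not used. Read depth is unknown from FPKM.

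Changes were computed as log2 ratios of FPKM + 1 with numpy 2.4.6 and pandas 2.3.3, on all listed genes, with a 2-fold threshold and no test within a line. The mean change over both lines was tested with limma 3.58.1 (R 4.3.3) on log2(FPKM + 1), with the cell line as a block and Benjamini-Hochberg adjustment over all genes tested. Pairing comes from the cell line each library was made from. Steps were tested on simulated data. The members, gene lists and motifs were chosen with earlier results of these data known. All 8 members are named. From each other list the rule took the 4 genes with the highest DMSO level and the 3 with the largest mean decrease and the 3 with the largest mean increase at 50 nM, of which a part is printed and some are not reported here; MKL1 and EGR1 lie outside it and were chosen after their values were seen. The 3 genes most like JUN, FOS and ATF3 were named. Alternatives were other pseudocounts, scalings, level filters and thresholds.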

Additional observations from a re-analysis of the deposited data

Results flagged for a closer look

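Directions differed between the lines for 4 genes, and with 1 library per condition these differences were not tested. For FOSL1 the change in A673 minus that in SKNMC was -2.09 at 50 nM THZ1, from -1.95 and 0.14, the latter becoming -0.059 with scaling by the ribosomal protein genes, and -3.50 at 200 nM, from -2.35 and 1.15. The level with DMSO was 19.7 FPKM in A673 and 1.42 FPKM in SKNMC. For ATF3 the difference was -0.58 at 50 nM, from -0.043 in A673, which became 0.17 with scaling by the 75th percentile, and 0.54 in SKNMC. For CYR61, an immediate early gene of a secreted matrix protein, it was -1.14 at 200 nM, from -1.11 in A673 and 0.028 in SKNMC, and the latter became -0.51 with scaling by the ribosomal protein genes. For EGR1, which was chosen after its values were seen, it was 1.29 at 50 nM, from 0.11, which became -0.10 with the same scaling, and -1.19, and 2.65 at 200 nM, from 1.98 and -0.67. In 10 further comparisons of named genes outside the AP-1 family the lines had opposite signs with neither change past 2-fold.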

How the results depend on the processing

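Of 108 recomputed counts of members past the threshold in single lines, 92 stayed within 1.5 times the reported count. With scaling by the 75th percentile of active genes, 2 members were increased in A673 at 50 nM, and 0 were decreased in SKNMC at 200 nM against DMSO or against 50 nM. With scaling by the median of 83 ribosomal protein genes, 1 was increased in SKNMC at 200 nM against DMSO and 0 against 50 nM, and with DMSO 0 were lower and 4 higher in A673 than in SKNMC. With a filter of FPKM above 5 in DMSO, 1 was decreased and 1 increased in SKNMC at 200 nM. With a 1.5-fold threshold, 2 were increased in A673 at 50 nM, 2 decreased in SKNMC at 50 nM, 2 decreased and 1 increased in A673 between the doses, 2 increased in SKNMC between the doses, and 2 lower and 4 higher in A673 with DMSO. These 2 scalings moved the median of all active genes against DMSO by 0.22 and -0.19 (50 nM) and 0.32 and -0.29 (200 nM) for A673, and by 0.25 and -0.28 (50 nM) and 0.48 and -0.44 (200 nM) for SKNMC. Of 280 single values of members, 258 moved by less than 0.5 on the log2 scale and 4 changed sign, none of them past 2-fold, and 102 of 110 values past 2-fold stayed there. In the fit over both lines with the cell line as a replicate block, chosen after the data were seen, 1 member fell at 50 nM with scaling by the 75th percentile, against 2 as deposited, and 1 rose with scaling by the ribosomal protein genes, against 2. Its other counts stayed within 1.5 times. With 1 library per condition no replicate could be left out. Depth is unknown, so that low levels such as those of FOSB carry an unknown counting error.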
